A study of Mus musculus with 23 samples.

Results

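The 10 genes described here encode components, regulators and partners of intestinal mucus, the product of goblet cells. They were set by name and matched to the Ensembl identifiers of the count files. All 10 of 55416 gene rows were found, and all 10 were among the 13405 genes that passed the filter on low counts. They comprise 6 secreted components of mucus (Muc2, Fcgbp, Clca1, Zg16, Tff3 and Spink4), 3 genes of goblet cell formation and mucin folding (Atoh1, Spdef and Agr2) and 1 membrane-bound mucin (Muc13). RNA-seq was done on 23 mice of the strain C57BL/6JRccHsd, labelled female and aged 42 days, with 1 library per mouse from a scraping of the upper (proximal) small intestine. From day 21 of age, for 3 weeks, 12 mice (GAL42) ate a pelleted diet with 16% of its energy from galactose and 16% from glucose, and 11 mice (GLU42) ate one with 32% from glucose. The labels describe the diets as alike in all else and name no genetic change or other treatment in either group. The question addressed is how galactose in place of part of the glucose after weaning bears on these genes.

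Goblet cells are the mucus-secreting cells of the intestinal lining and arise in the crypts, where the transcription factor Atoh1 commits a cell to the secretory lineages when Notch signalling is low. Spdef then drives goblet cell maturation. Muc2 is the gel-forming mucin that makes up the scaffold of intestinal mucus. In the small intestine the mucus is loose and is spread over the villi, and other proteins released with it bind to the gel, cut it or bind bacteria. A scraping holds many cell types in unknown shares, so fewer cells of a type and less RNA per cell cannot be told apart.

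Libraries held 15382583 to 17174721 counts in genes. The absorptive enterocyte markers of the labelled tissue were abundant (summed level 60508 to 89698 CPM, counts per 1000000 in genes after scaling), and of the Brunner gland markers Bpifb1 and Aqp5 had no count in any library while Tff2 reached at most 3.02 CPM. Galactose replicate 12, labelled female, held 4 Xist counts where the lowest other library held 778, and 225 counts of 4 Y-linked genes where the highest other library held 1. These counts go against its female label, and whether its diet label holds was not tested. Galactose replicate 2 stood apart by pancreatic acinar transcripts (summed level of 856 CPM, against a median of 36.4 CPM on galactose and 40.4 CPM on glucose). When libraries were left out singly, edgeR called genes between the diets only without galactose replicate 7, and these were 219 of 13338 genes (1.64%), 0 of them among the 10. Differences with replicate 2, 7 or 12 left out singly are given with each gene.

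None of the 10 genes passed the test between the diets. edgeR's quasi-likelihood test with Benjamini-Hochberg adjustment called 0 of 10, against 0 of all 13405 genes (0%), and at an unadjusted p under 0.05 it held 1 of 10, Fcgbp, against 14.4% of all genes. With limma-voom and sample quality weights 0 of 10 passed as well (1.25% of all genes did), and 3 of 10 had an unadjusted p under 0.05 (20.8% of all genes). The gel mucin Muc2 and the mucin-associated proteins Fcgbp and Clca1 had the largest differences, all with the lower mean on galactose, while Zg16, Tff3, the 3 goblet cell formation and folding genes and Muc13 had differences of at most 0.08 in size on the log2 scale. Of the 6 secreted genes 5 had negative differences (median log2 difference -0.14), as did 50.5% of all tested genes (median -0.00174). The 3 formation and folding genes had a median of 0.02, 2 of them positive. The plot of CPM by mouse shows that the diets overlapped for every gene.

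**Figure D1:**
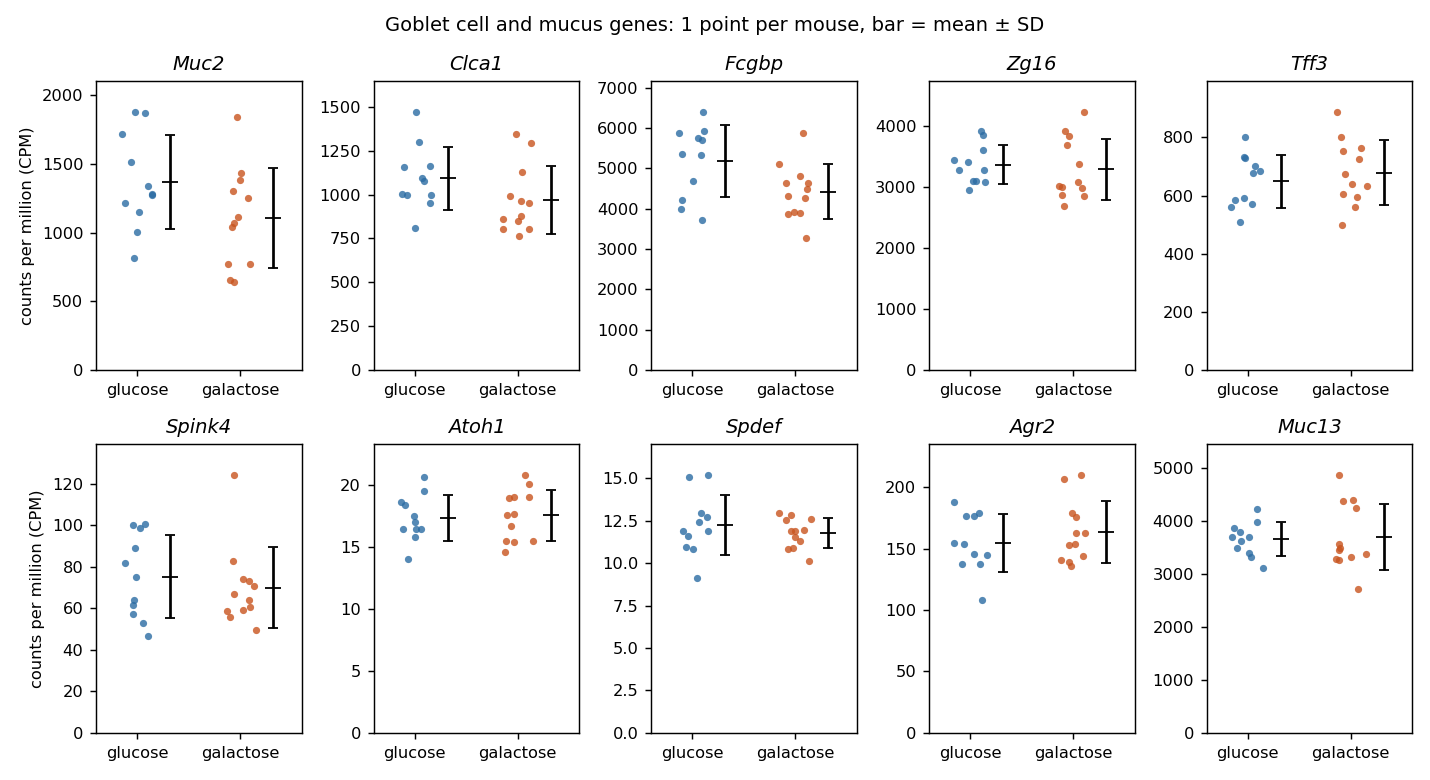
CPM (vertical axes, from 0) of the 10 genes in each mouse on the glucose diet (11 points) and the galactose diet (12 points), with the mean and SD of each group beside the points. The groups overlap in all 10 panels, and the Fcgbp points on galactose lie mostly below the glucose mean of 5179 CPM.

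Muc2 had the widest span of the 10 over all mice as a ratio, with a highest level 2.93 times the lowest. On galactose it ranged from 639.5 CPM (replicate 2) over a median of 1092 to 1841 CPM (replicate 7). On glucose it ranged from 815 CPM (replicate 8) over a median of 1278 to 1877 CPM (replicate 6). The highest galactose mouse thus reached nearly the highest glucose mouse, and 8 of 12 galactose libraries lay below the glucose median. The means were 1106 ± 361 CPM (SD, n = 12) and 1368 ± 344 CPM (SD, n = 11), a log2 difference of -0.31 ± 0.16 (SE; unadjusted p = 0.0686 and adjusted p = 0.387 by edgeR). A permutation test of the difference in CPM gave p = 0.0905 (two-sided, adjusted p = 0.428 over the 10 genes). Without galactose replicate 7 the log2 difference was -0.40 (adjusted p = 0.156 by edgeR), without replicate 12 it was -0.34 (adjusted p = 0.336) and without replicate 2 it was -0.25 (adjusted p = 0.477).

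Fcgbp encodes the IgG Fc binding protein, a large mucus protein that is linked to Muc2 in the gel. It ranged from 3285 (replicate 8) over a median of 4400 to 5881 CPM (replicate 7) on galactose, and from 3727 (replicate 8) over a median of 5363 to 6393 CPM (replicate 4) on glucose. Only galactose replicate 7 lay above the glucose median, so 11 of 12 galactose libraries were below it. The means were 4421 ± 674 CPM (SD, n = 12) and 5179 ± 884 CPM (SD, n = 11), a log2 difference of -0.23 ± 0.10 (SE; unadjusted p = 0.0239 and adjusted p = 0.273 by edgeR). The permutation test gave p = 0.0306 (adjusted p = 0.306 over the 10 genes). Without galactose replicates 2, 7 and 12, each left out singly, the log2 difference of Fcgbp was -0.23, -0.27 and -0.23. Its unadjusted p stayed under 0.05 in 22 of 23 edgeR fits that each left out 1 library, though these fits share nearly all libraries. Its smallest adjusted p in any fit was 0.0911, by limma-voom with sample quality weights. With the length slope of the library (explained further on) as a covariate, edgeR gave Fcgbp an unadjusted p of 0.258 and an adjusted p of 0.889.

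The stretches upstream of the starts of Muc2 and Fcgbp are shown because these transcripts moved together across mice (correlations given further on), with Agr2 as a goblet cell gene that followed neither of them. The promoter sequences are from RefSeq on GRCm38.p6, another build than the GRCm39 of the counts, and 6 of the 10 genes had an entry. The secreted genes Clca1, Zg16, Tff3 and Spink4 had none and could not be searched. Each sequence runs 5′ to 3′ on the strand of the gene over the 250 bases before the annotated start. Capitals mark CAGCTG, an E-box of the kind that basic helix-loop-helix factors such as Atoh1 bind, and ATATAA, letters found in TATA boxes. Both were searched on both strands, no matches overlapped, and the Agr2 window held neither.
Muc2, chr7:141690090-141690339, plus strand: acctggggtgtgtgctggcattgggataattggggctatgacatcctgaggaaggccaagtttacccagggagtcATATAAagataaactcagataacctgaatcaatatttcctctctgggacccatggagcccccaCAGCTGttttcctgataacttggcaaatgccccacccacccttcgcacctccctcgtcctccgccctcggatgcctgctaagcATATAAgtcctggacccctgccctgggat
Fcgbp, chr7:28070986-28071235, plus strand: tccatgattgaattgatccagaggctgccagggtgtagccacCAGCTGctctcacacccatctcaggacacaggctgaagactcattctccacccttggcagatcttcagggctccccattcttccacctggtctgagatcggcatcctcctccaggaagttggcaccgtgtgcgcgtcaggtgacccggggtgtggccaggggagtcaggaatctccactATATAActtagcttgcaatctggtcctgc
Agr2, chr12:35992675-35992924, plus strand: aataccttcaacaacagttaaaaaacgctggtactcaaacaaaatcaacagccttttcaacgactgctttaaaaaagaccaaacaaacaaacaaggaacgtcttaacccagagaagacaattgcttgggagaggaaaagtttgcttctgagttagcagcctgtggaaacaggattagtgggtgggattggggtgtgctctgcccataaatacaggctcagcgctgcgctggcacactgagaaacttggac

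CAGCTG began 112 bases before the start of Muc2 and 208 bases before that of Fcgbp, and it stood in none of the Agr2, Atoh1, Spdef and Muc13 windows. Of 32544 promoter windows of the same length, 13.05% held it. ATATAA began 29 bases before the start in both Muc2 and Fcgbp, with another match 175 bases before the start of Muc2, and 9.09% of all windows held it. The letters TTTATG, found in sites of the intestinal factor Cdx2 (10.8% of all windows), stood in Agr2, in Spdef and in 1 of the 2 Muc13 windows, and TNTTTAC, found in sites of Fox factors (10.9% of all windows), in Atoh1 and Spdef. These matches describe letters and say nothing of binding in these mice.

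Clca1 encodes a secreted metalloprotease that cuts Muc2. It ranged from 762 (replicate 4) over a median of 914 to 1346 CPM (replicate 5) on galactose and from 807 (replicate 8) over a median of 1077 to 1470 CPM (replicate 4) on glucose. Of the 12 galactose libraries 9 lay below the glucose median, and galactose replicates 2 and 5 stood at the top of their group. The means were 969 ± 192 CPM and 1091 ± 179 CPM (SD), a log2 difference of -0.17 ± 0.10 (SE; adjusted p = 0.435 by edgeR), at 2 SE from -0.37 to 0.03. Without galactose replicate 5 the difference was -0.22, and without glucose replicate 4 it was -0.12. Leaving out galactose replicate 2, 7 or 12 singly gave -0.22, -0.19 and -0.16 for Clca1.

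Zg16 encodes a lectin that binds bacterial cell walls in mucus, and it was first known from the secretory granules of the pancreas. It ranged from 2692 over a median of 3043 to 4221 CPM on galactose and from 2947 over 3278 to 3914 CPM on glucose. The glucose range lay inside the galactose range. The log2 difference was -0.03 ± 0.08 (SE; adjusted p = 0.888 by edgeR), which at 2 SE spans -0.18 to 0.12. Galactose replicate 2, with the pancreatic transcripts, had 3906 CPM of Zg16, the second highest of its group. Across the 23 libraries Zg16 and the mean log2 CPM of 16 pancreatic acinar genes had r = 0.30 (permutation p = 0.139) and rho = 0.29 (permutation p = 0.180). Pearson's r was 0.38 within galactose, 0.24 within glucose and 0.20 without the 2 libraries farthest from the median score. Without galactose replicate 2 the r over the other libraries was 0.05, so the pooled r depended on that library. The r within glucose does not include it. With the pancreatic score as a covariate the diet difference of Zg16 was -0.06, and with galactose replicate 2, 7 or 12 left out singly it was -0.06, -0.01 and -0.02.

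Tff3 encodes a trefoil peptide that is released with Muc2 and aids epithelial repair. It ranged from 501 (replicate 7) over a median of 657 to 888 CPM (replicate 9) on galactose and from 509 (replicate 3) over 678 to 803 CPM (replicate 10) on glucose. Its log2 difference was 0.06 ± 0.09 (SE; adjusted p = 0.782 by edgeR), at 2 SE from -0.11 to 0.24, and it was 0.05, 0.10 and 0.08 without galactose replicate 2, 7 or 12. The galactose mouse lowest for Tff3 was the one highest for Muc2. Spink4, a Kazal-type peptide of goblet cells, ranged from 49.8 over 65.5 to 124 CPM on galactose and from 46.5 over 75.0 to 101 CPM on glucose. A single galactose mouse, replicate 5, lay above all glucose mice, and 10 of 12 galactose libraries were below the glucose median. Its log2 difference was -0.10 ± 0.14 (SE; adjusted p = 0.772 by edgeR), and -0.21 without replicate 5. It was -0.08, -0.07 and -0.11 without galactose replicate 2, 7 or 12.

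The genes of goblet cell formation and mucin folding showed no shared direction. Atoh1 ranged from 14.6 over 17.6 to 20.8 CPM on galactose and from 14.03 over 17.0 to 20.6 CPM on glucose, nearly the same span. Its log2 difference was 0.02 ± 0.07 (SE; adjusted p = 0.935 by edgeR), at 2 SE from -0.12 to 0.16. Without galactose replicate 2, 7 or 12 it was 0.03, -0.00692 and 0.00334. Spdef ranged from 10.2 over 11.9 to 12.9 CPM on galactose and from 9.14 over 11.9 to 15.2 CPM on glucose. The glucose group held both the lowest and the highest Spdef library, with a log2 difference of -0.06 ± 0.07 (SE; adjusted p = 0.764 by edgeR), at 2 SE from -0.21 to 0.09, and -0.06, -0.07 and -0.04 with those libraries left out in the same order. These 2 transcription factors rest on 147 to 356 counts per library. Agr2, a disulfide isomerase of the endoplasmic reticulum that is needed for Muc2 production, ranged from 136 over 158 to 210 CPM on galactose and from 108 over 153 to 188 CPM on glucose. The 2 highest Agr2 libraries were on galactose (replicates 5 and 11) and the lowest on glucose (replicate 5). Its log2 difference was 0.08 ± 0.09 (SE; adjusted p = 0.706 by edgeR), at 2 SE from -0.09 to 0.25, and 0.10, 0.09 and 0.07 with replicate 2, 7 or 12 left out.

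Muc13 is a membrane-bound mucin of the cell surface that absorptive cells carry as well as goblet cells. It ranged from 2708 (replicate 8) over 3472 to 4870 CPM (replicate 5) on galactose and from 3118 over 3697 to 4219 CPM on glucose. Galactose mice lay both above and below all glucose mice. The coefficient of variation was 17.0% on galactose and 8.62% on glucose, and the log2 difference was 0.01 ± 0.08 (SE; adjusted p = 0.956 by edgeR), at 2 SE from -0.15 to 0.18. Left out singly, galactose replicates 2, 7 and 12 gave -0.01, 0.02 and 0.02 for Muc13.

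By level per length, in CPM per kilobase of the longest annotated transcript and as a mean over all mice, Zg16 came first with 4595, followed by Tff3 (1348), Muc13 (1238), Fcgbp (603), Clca1 (281), Spink4 (183), Agr2 (176), Atoh1 (8.24) and Spdef (6.25). The neighbours Tff3 and Muc13, Spink4 and Agr2, and Atoh1 and Spdef stood close to each other in this order. Muc2 is left out of it, since the annotation at hand holds that locus only in fragments. Of all counts in genes the 10 together took 1.43 ± 0.170% in galactose mice and 1.56 ± 0.139% in glucose mice (SD), of which the 6 secreted genes made 1.05 ± 0.127% and 1.17 ± 0.142%. The highest Spink4 level was 2.68 times the lowest, that of Zg16 1.57 times and that of Atoh1 1.49 times. By biological variation in edgeR's fit Muc2 lay at the percentile 81.1 of all tested genes, Spink4 at 74.0, Spdef at 24.97 and Atoh1 at 22.9.

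Across the 23 mice the secreted genes did not move as 1 block. Of 45 pairs among the 10 genes, 5 passed by Pearson's r of log2 CPM and 5 by Spearman's rho, 4 of them by both, and these 4 all joined secreted genes (permutation tests with 100000 resamples, adjusted over the 45 pairs). Muc2 and Fcgbp had r = 0.75 and rho = 0.72 (permutation p = 4e-05 and 0.00022, adjusted p = 6e-04 and 0.0033). The r was 0.68 within galactose, 0.77 within glucose and 0.77 without the 2 libraries farthest from the Muc2 median. Clca1 and Fcgbp had r = 0.76 and rho = 0.74 (permutation p = 2e-05 and 6e-05, adjusted p = 6e-04 and 0.00135), with r = 0.76 and 0.69 within the diets and 0.73 without the 2 farthest libraries. Zg16 and Tff3 had r = 0.77 and rho = 0.76 (permutation p = 3e-05 and 5e-05, adjusted p = 6e-04 and 0.00135), with r = 0.82 within galactose, 0.76 within glucose and 0.79 without the 2 farthest libraries.

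Clca1 and Zg16, which joined these pairs, had r = 0.65 and rho = 0.58 (permutation p = 9e-04 and 0.00445, adjusted p = 0.0101 and 0.0437), and with r = 0.69, 0.60 and 0.52 within galactose, within glucose and without the 2 farthest libraries. With library totals in place of TMM scaling this pair no longer passed (r = 0.55, permutation test, adjusted p = 0.0604). Muc2 on the other hand had r = 0.38 with Clca1 (permutation test, adjusted p = 0.358), 0.07 with Zg16, -0.23 with Tff3 and -0.16 with Spink4, none of which passed. With Muc13, Zg16 passed by Pearson's r only (r = 0.57, permutation p = 0.00402, adjusted p = 0.0362; rho = 0.51, adjusted p = 0.0740), and within glucose their r was 0.12 against 0.72 within galactose. Clca1 and Muc13 passed by rho only (rho = 0.57, permutation p = 0.00485, adjusted p = 0.0437; r = 0.54, adjusted p = 0.0550). Among the 18 pairs of a secreted gene with Atoh1, Spdef or Agr2, 0 passed by either measure, with r between -0.17 and 0.45. The r of Atoh1 with Spdef was 0.000358.

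**Figure D2:**
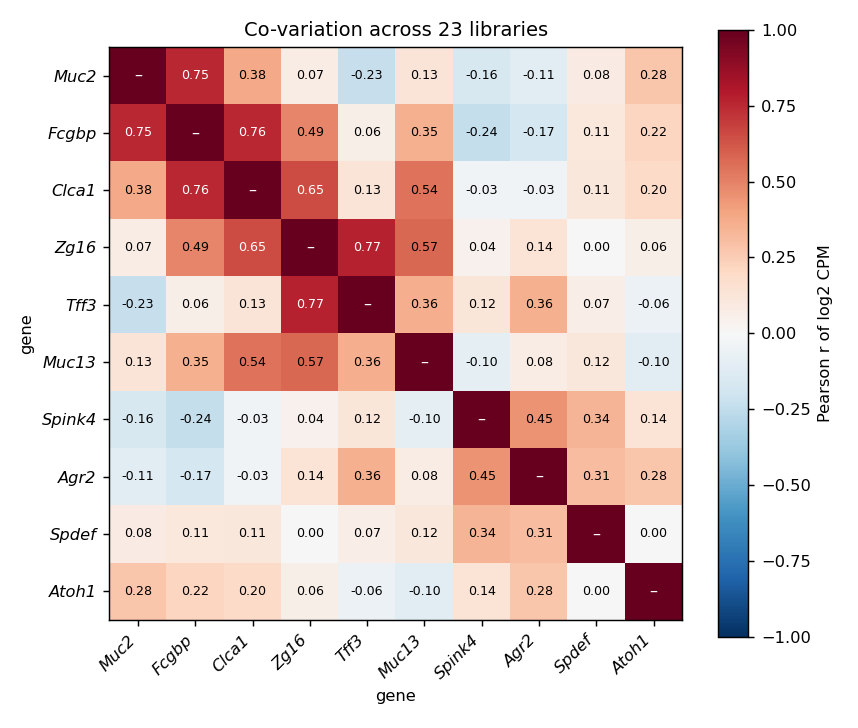
Pearson r of log2 CPM over 23 libraries for each pair of the 10 genes, from -1 (blue) to 1 (red). In the upper left Fcgbp has r = 0.75 with Muc2 and 0.76 with Clca1, while Muc2 with Clca1 has 0.38. Zg16 and Tff3 stand beside them at 0.77, and the rows of Spdef and Atoh1 stay between -0.10 and 0.34.

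**Figure D3:**
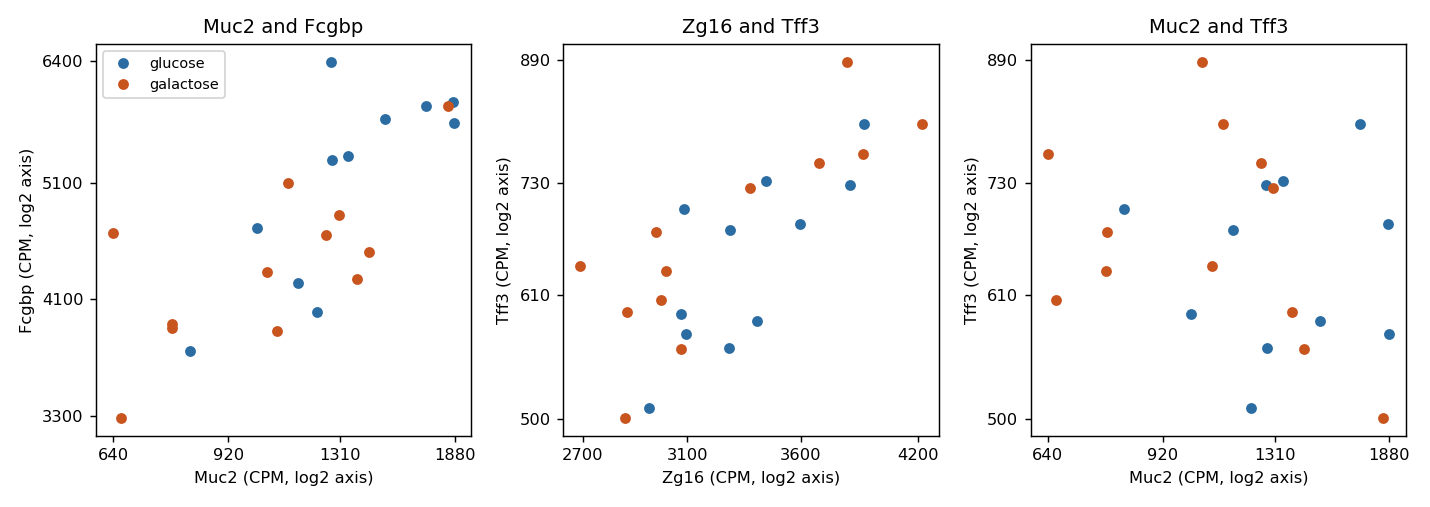
CPM of 2 genes against each other on log2 axes, 1 point per mouse, for Muc2 with Fcgbp, Zg16 with Tff3 and Muc2 with Tff3. The first 2 panels rise in both diets (r = 0.75 and 0.77), and the third does not (r = -0.23).

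Some of the 10 genes also moved with a measure of transcript length. For each library a length slope was fitted over genes, from log2 transcript length to the deviation of log2 CPM from the gene's mean; the higher this slope, the more of the counts fell in long transcripts. It was -0.0289 ± 0.0553 on galactose and 0.0315 ± 0.0450 on glucose (SD). Across the 23 libraries the slope had r = 0.52 with Fcgbp (transcript of 7928 bases), 0.51 with Muc2, -0.52 with Tff3 (493 bases), -0.53 with Spink4 (397 bases) and -0.48 with Agr2 (907 bases). These 5 passed by Pearson's r (permutation p = 0.0111, 0.0128, 0.0121, 0.00988 and 0.0200 in that order, adjusted p = 0.0320 for the first 4 and 0.0399 for Agr2, over 10 genes). By Spearman's rho (0.54, 0.52, -0.49, -0.44 and -0.45) 0 of 10 passed, at a smallest adjusted p of 0.0538 (permutation tests). Within glucose the r was 0.41 for Fcgbp, 0.14 for Muc2, -0.28 for Tff3, -0.70 for Spink4 and -0.40 for Agr2, and within galactose 0.37, 0.55, -0.69, -0.74 and -0.51. Without the 2 libraries of most distant slope it was 0.57, 0.48, -0.54, -0.40 and -0.45. The other genes did not pass. Their r with the slope was 0.27 for Clca1 (3655 bases), -0.21 for Zg16 (723 bases), 0.10 for Atoh1, -0.15 for Spdef and 0.04 for Muc13. Within galactose and within glucose it was -0.57 and 0.19 for Zg16, and -0.02 and 0.33 for Clca1. Galactose replicate 7 had the highest slope of its group (0.0795), the highest Muc2 and Fcgbp and the lowest Tff3 and Spink4. Galactose replicate 5 had the lowest slope of all (-0.123) and the highest Spink4, Zg16, Clca1 and Muc13 of its group.

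**Figure D4:**
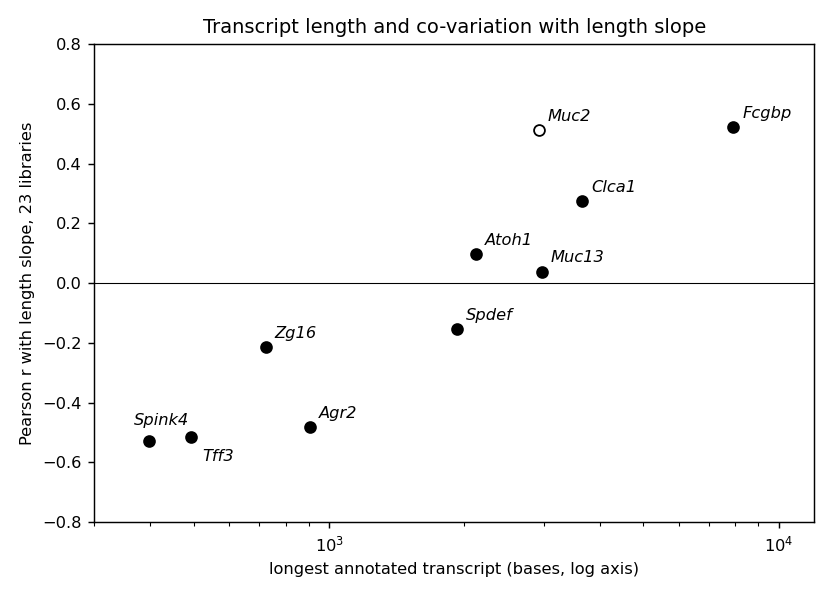
Pearson r of each gene's log2 CPM with the length slope of the library over 23 libraries (vertical axis) against the length of its longest annotated transcript in bases (log axis). Short transcripts such as Spink4 (-0.53) lie below 0 and Fcgbp (0.52) lies above it; the open point marks Muc2, whose annotated transcripts are fragments.

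With the slope as a covariate in edgeR the diet differences of several secreted genes changed in size. That of Muc2 shrank from -0.31 to -0.13 ± 0.17 and that of Fcgbp from -0.23 to -0.12 ± 0.11, while Clca1 stood at -0.15 ± 0.12 (SE). Zg16 moved to -0.11 ± 0.09, Tff3 turned to -0.09 ± 0.09 and Spink4 moved to -0.42 ± 0.12, so that all 6 of 6 secreted genes were negative, as were 48.6% of all tested genes. None passed (adjusted p = 0.736 for Spink4, unadjusted p = 0.00115, where 6.61% of all genes had an unadjusted p under 0.05). Atoh1 stood at 0.04 ± 0.08, Spdef at -0.11 ± 0.08, Agr2 at -0.04 ± 0.09 and Muc13 at 0.02 ± 0.10. What sets the slope was not tested. Its mean differed between the diets and it was computed from these same counts. The fit thus cannot tell diet and slope apart, and its values are not corrected diet effects.

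**Figure D5:**
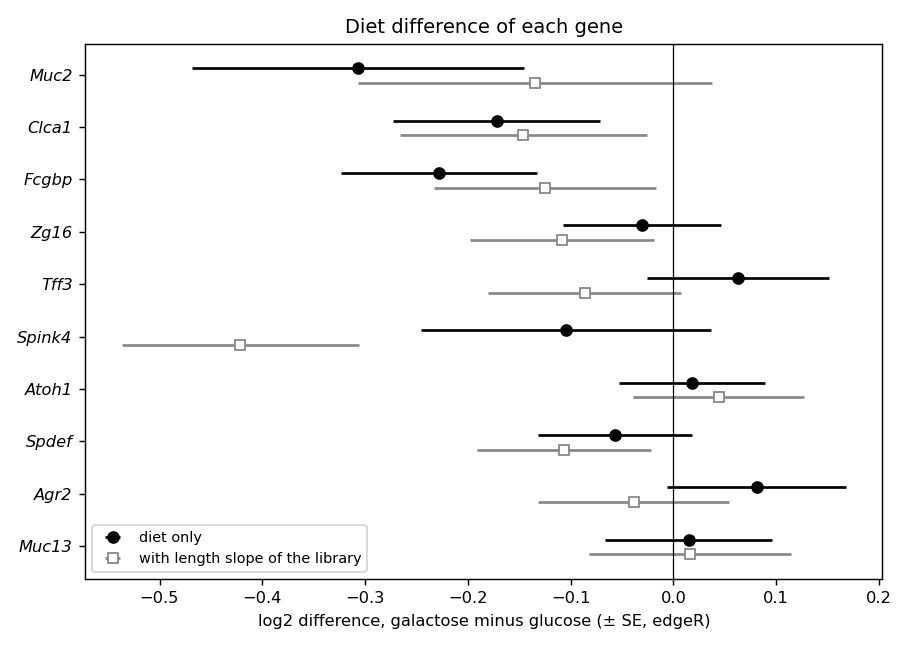
Log2 difference between the diets (galactose minus glucose) with its SE for the 10 genes, by edgeR with diet as the only term (filled circles) and with the length slope of the library as a covariate (open squares). Muc2 moves from -0.31 to -0.13, Spink4 from -0.10 to -0.42, and Atoh1 stays near 0.

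The other genes of mucus production passed no test by edgeR either. Of 19 tested other goblet cell genes 0 passed, and 3 had an unadjusted p under 0.05, all lower on galactose (13 of 19 negative, median -0.05, against 5.72% of all genes with such a p and the lower level on galactose). Creb3l1, a transcription factor that activates secretory genes, stood at 21.4 ± 2.48 CPM on galactose beside 26.0 ± 4.62 on glucose (SD; log2 difference -0.28 ± 0.09, adjusted p = 0.162 by edgeR), and Sytl2, a Rab27 effector of granule release, averaged 14.6 ± 2.44 against 17.6 ± 2.78 CPM (log2 difference -0.27 ± 0.10, adjusted p = 0.205). With the length slope as a covariate Creb3l1 stood at -0.30 and Sytl2 at -0.07. The most abundant of the list were Muc3, a membrane mucin that enterocytes also carry and whose reads could be split with the close copy Muc3a (3870 ± 1349 CPM against 4020 ± 844 CPM), Scin (248 against 233 CPM) and the guanylin precursor Guca2a (177 against 184 CPM), with log2 differences of -0.05, 0.09 and -0.05. Enzymes of mucin O-glycosylation, which build the sugar chains on mucins, were negative in 13 of 18 tested genes (median -0.06), and 2 of 18, both lower, had an unadjusted p under 0.05 (5.72% of all genes lower, 14.4% in either direction). These were Gcnt4 (108 ± 12.4 CPM against 125 ± 16.8 CPM, log2 difference -0.21 ± 0.07) and Galnt4 (50.5 ± 5.42 CPM against 57.3 ± 5.70 CPM, -0.18 ± 0.06), with an adjusted p of 0.202 and 0.205 by edgeR. With the length slope as a covariate Gcnt4 stood at -0.07 (unadjusted p = 0.345) and Galnt4 at -0.15. B3gnt3 (0.03), Galnt6 (-0.09) and B4galnt2 (-0.13) were the most abundant.

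Among genes of mucus release, ion transport and mucin processing 10 of 14 were negative (median -0.10), and 2 of 14, both lower, had an unadjusted p under 0.05, beside 5.72% of all genes lower and 14.4% in either direction. Mep1a, the alpha subunit of the protease meprin, stood at 148 ± 26.2 CPM on galactose beside 205 ± 69.7 on glucose (SD; log2 difference -0.47 ± 0.14, adjusted p = 0.162 by edgeR and 0.0498 by DESeq2, which called 1.84% of the 7168 genes it gave an adjusted p). Slc4a4, a sodium bicarbonate carrier, had -0.28 ± 0.10 (adjusted p = 0.205 by edgeR), and -0.08 with the length slope as a covariate, where Mep1a stood at -0.39. Mep1b, the meprin subunit that frees Muc2 from the cells in the small intestine, averaged 1039 ± 91.4 against 1152 ± 178 CPM (log2 difference -0.15 ± 0.08, adjusted p = 0.372). Clca4a (-0.31 ± 0.16) and Clca4b (-0.15 ± 0.11) are close copies whose reads the counting could split, so both values are uncertain. With the length slope they were -0.05 and -0.00645.

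Of 20 genes of the Notch pathway and secretory fate, 13 were negative (median -0.09), and 3 had an unadjusted p under 0.05, 1 higher and 2 lower (8.63% and 5.72% of all genes). Hes6, a relative of the Notch target Hes1, stood at 35.1 ± 3.69 CPM in galactose mice beside 29.5 ± 2.63 in glucose mice (SD; log2 difference 0.25 ± 0.06, adjusted p = 0.138 by edgeR). It passed by DESeq2 (adjusted p = 0.0311) and by edgeR without galactose replicate 7 (adjusted p = 0.0422). Foxa1, a factor of secretory cell fate, averaged 7.02 ± 1.598 against 8.52 ± 0.960 CPM (log2 difference -0.28 ± 0.11, adjusted p = 0.242 by edgeR). With the length slope Hes6 stood at 0.17 and Foxa1 at -0.18. The goblet cell factor Klf4 (-0.12), Elf3 (0.09) and the Notch ligand Dll1 (-0.07) were the most abundant of this list.

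Of the signals of type 2 immunity, which expand goblet cells during worm infection, several cytokine transcripts were hardly present. Il4, Il5, Il13 and Il25 fell below the filter with 4 to 44 counts over all 23 libraries. Il22, a cytokine on the same list that is not of type 2, had 2 counts. Of the 12 genes of the list 7 were tested (5 negative, median -0.02). The summed level of the list was 503 to 787 CPM on galactose and 519 to 760 CPM on glucose. The receptors and their factor, Il13ra1 (-0.12), Il4ra (-0.02) and Stat6 (0.02), differed little, and Il22ra1 stood at -0.26 ± 0.17 (log2 differences ± SE, adjusted p = 0.490 by edgeR). Retnlb, a goblet cell product of such infections, had 4 counts over all libraries. The mucins of stomach and airways were likewise at the limit, with 1 count of Muc5ac and 0 counts of Muc5b over all libraries.

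Markers of other cells were compared as lists. Paneth cell markers, of cells that also depend on Atoh1, were negative in 9 of 9 tested genes (median -0.28), beside 50.5% of all tested genes. At an unadjusted p under 0.05 by edgeR there were 0 of 9, beside 14.4% of all genes. Lyz1 had -0.28 ± 0.26, Defa24 -0.23, Itln1 -0.25 and Defa17 -0.34 (log2 differences), and the summed level ranged from 412 to 1864 CPM on galactose and from 378 to 2289 CPM on glucose. With the length slope as a covariate these 4 stood at -0.64, -0.57, -0.64 and -0.70, with unadjusted p-values of 0.0245, 0.0394, 0.0188 and 0.0191 by edgeR (6.61% of all genes had one under 0.05 in that fit), and none passed after adjustment (smallest adjusted p = 0.739). These 4 of the 9 were named by level or by smallest p, and markers of the same cell type in the same libraries are not independent of each other. The part of the Paneth markers in the differences of Muc2, Fcgbp and Clca1 was not tested. Smooth muscle markers were negative in 7 of 7 (median -0.25, summed level 40.0 to 112 CPM and 38.6 to 164 CPM). B and plasma cell markers were positive in 7 of 7 (median 0.90), 3 of 7 with an unadjusted p under 0.05 (8.63% of all genes higher), while their summed level had medians of 609 CPM on galactose (394 to 1851) and 621 CPM on glucose (345 to 1103). Enteroendocrine markers had a median of -0.02 (4 of 10 positive), tuft cell markers -0.08 (2 of 8 positive) and enterocyte markers 0.01 (6 of 10 positive).

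Transcripts much like Muc2 across the 23 libraries, by Pearson's r of log2 CPM among genes of at least 1 CPM, included Myo5c (0.84), Usp35 (0.82), Muc3a (0.82), Rsrc2 (0.81), Srgap1 (0.81), Tet3 (0.81) and Zc3h13 (0.81). Those most like Zg16 outside the 10 were Tmem45b (0.72), Hmces (0.71), Mif4gd (0.70), Trpm5 (0.70), Adipor1 (0.69), Dio1 (0.67), Ppdpf (0.67) and Retreg2 (0.66). For Muc2 these values exceeded its r of 0.75 with Fcgbp, whereas Zg16 had a higher r with Tff3 (0.77) than with any of its 8. The 8 genes of each were picked for the highest r, so their values are high by that choice and these comparisons are not tests. The 8 genes most like Muc2 had transcripts of 1881 to 10904 bases (median 6054). The 8 most like Zg16 had transcripts of 1160 to 4123 bases (median 2125.5), and the median over all tested genes was 3228 bases. The part of transcript length in these values was not tested. All libraries share the tissue and the preparation, so these values describe likeness in these mice only.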

How the data were processed

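RNA-seq counts of 23 libraries were analysed. The submitters' processing notes name STAR, HTSeq and GRCm39; versions, annotation release and strand setting were not given in the sources used here, so reads of overlapping or antisense genes may not be told apart. The authors deposited raw counts per gene and library. The 5 rows that name no gene held 13.5% of the reads and were left out. Transcript lengths came from GENCODE M21 (GRCm38).

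edgeR 4.0.16 (R 4.3.3) compared the diets in a model of diet alone over the 23 libraries, after filterByExpr and TMM scaling, with Benjamini-Hochberg adjustment over 13405 genes and a threshold of 0.05. CPM are TMM-scaled and log2 CPM use a prior count of 2. Permutation tests are two-sided with 100000 resamples. On simulated counts of 13405 genes, of which 200 were changed, recovery for this comparison was 44% at 1.25-fold, 70% at 1.5-fold and 92% at 2-fold. These percentages describe the simulated counts only. Whether they hold for the mucus genes in the real libraries, which differed in length slope and pancreatic transcripts, was not tested. No 2 libraries of a diet were copies (chi-square per degree of freedom at least 12.9 in 121 pairs). Replicate numbers follow the order of deposit.

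The genes and lists were chosen with earlier results of these data known. Text names all 10 genes, the 3 most abundant and the 2 of smallest p of each pathway list and of the Paneth markers, and the 8 genes most like each of Muc2 and Zg16, of which 1 is not reported here; the choice to give other marker lists by counts was made after values were seen, as was that of the promoter motifs. Alternatives were other scalings, filters and tools (DESeq2 1.42.0, limma-voom from limma 3.58.1), each library left out, and the length slope or a pancreatic score as a covariate. The correlations with the length slope were added after the diet differences had been seen.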

Additional observations from a re-analysis of the deposited data

How the results depend on the processing

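The number of the 10 genes called was 0 in every fit tried. Over all genes edgeR called 0, DESeq2 132 (0 of the 9 of these genes to which it gave an adjusted p), limma-voom with sample quality weights 167, and edgeR with each library left out 0 to 219. Muc2, Fcgbp, Clca1, Zg16, Spink4 and Spdef kept a negative difference in all of them. With the length slope Tff3 turned to -0.0865 and Agr2 to -0.0387. Atoh1 turned to -0.00321 with quality weights and ranged from -0.00948 to 0.0453 with a library left out. Muc13 turned to -0.0142 with the pancreatic score and -0.0180 with quality weights, and ranged from -0.0277 to 0.0493. Of the other named genes, these changed sign with the length slope: B4galnt2 (0.121), Galnt6 (0.0238), Il22ra1 (0.142), Il4ra (0.0744), Klf4 (0.0696) and Muc3 (0.233). With the pancreatic score B3gnt3 turned to -0.00938 and Stat6 to -0.00636, and with quality weights B3gnt3 to -0.00359, Guca2a to 0.00799 and Stat6 to -0.0195. With a library left out B3gnt3 ranged from -0.00521 to 0.0466, Guca2a from -0.123 to 0.0258, Il4ra from -0.0636 to 0.0113, Muc3 from -0.166 to 0.0196 and Stat6 from -0.00549 to 0.0380. The cause of these turns was not tested. Zg16 with the pancreatic score had r = 0.16 with library totals and 0.05 to 0.30 with galactose replicate 2 or 12 left out. Of the 5 pairs of genes called by Pearson's r, 3 remained with library totals in place of TMM, where Clca1 with Zg16 had r = 0.55 and Zg16 with Muc13 r = 0.47. Without galactose replicate 7 there were 7 pairs, all 5 among them, and without replicate 12 the same 5. Without replicates 2 and 12 together, an alternative chosen after seeing the data, there were 5, 4 of them shared. No paired analysis was possible because the labels tie no galactose mouse to a glucose mouse. Of the 10 genes Atoh1 and Spdef had the fewest counts, 147 to 356 per library.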

Other observations

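The CPM ratios of Muc2 and Fcgbp to Tff3 differed widely between mice of 1 diet. The CPM ratio of Muc2 to Tff3 ranged from 0.836 over a median of 1.52 to 3.68 on galactose and from 1.16 over 2.14 to 3.28 on glucose. That of Fcgbp to Tff3 ranged from 4.86 over 6.13 to 11.7 on galactose and from 5.32 over 7.92 to 9.95 on glucose. The galactose medians were the lower ones for both ratios, while the highest values of both belonged to galactose replicate 7. That library had the highest length slope of its group (0.0795). Across the 23 libraries the slope had r = 0.51 with Muc2 and 0.52 with Fcgbp, but -0.52 with Tff3. The part of the slope in these ratios was not tested. These ratios were looked at after the values of the single genes had been seen, and no test was made of them.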
